A study of Mus musculus with 9 samples.

Results

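Solute carriers are membrane proteins that move nutrients, ions, metals and metabolites across the plasma membrane and the membranes of organelles, and their genes carry names that start with Slc and a family number. The genes described here are the Slc genes expressed in mouse morulae, chosen by name and level: every gene whose name starts with Slc and a digit and whose normalised count was 10 or more in 3 or more of the 9 libraries. The glucose transporter family Slc2a, Slc38a4 and Slc9a3r1 were left out by name. The rule was met by 227 of 326 such genes, in a table of 20087 named genes. The other 99 stayed below the threshold, and none of them was at 0 in every library. Of the 227, 170 reached 10 in all 9 libraries and 71 had a mean below 50. Because the rule uses the level, the levels below are a description and are not tested.

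Polyadenylated RNA was sequenced from B6D2F1 embryos of wild-type background that had been injected at the zygote stage with small interfering RNA (siRNA, short double-stranded RNA that lowers the matching messenger RNA). Controls (NC) received a nonspecific siRNA, a second group (Hdac1/2 cKD) received siRNA for Hdac1 and Hdac2, which encode deacetylases of histones, and the last group (Sin3a KD) received siRNA for Sin3a, a scaffold of histone deacetylase complexes. Each group has 3 libraries, each from a pool of 60 embryos taken at E2.75, near the morula stage. The labels do not say that the pools came from separate injection sessions, so p-values measure the spread between these pools. In bulk RNA of this kind, fewer cells of a type and less RNA per cell cannot be told apart.

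In the embryo before implantation, carriers for amino acids, organic osmolytes and ions serve both nutrition and the control of cell volume, and sodium and chloride transport across the outer cells precedes the blastocyst cavity. Mitochondrial carriers (family Slc25) exchange phosphate, nucleotides, acids and cofactors across the inner mitochondrial membrane, and carriers of the Golgi apparatus (family Slc35) bring in nucleotide sugars for glycosylation. Amino acid carriers are also linked to the mTORC1 kinase, which senses amino acids, and to the transcription factor ATF4, which is translated when amino acids are scarce and activates carrier genes.

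The targeted genes were lower in the labelled groups. Hdac1 was at 6245, 4925 and 5536 normalised counts in NC and at 1052, 1007 and 769.6 in Hdac1/2 cKD (log2 -2.57, adjusted p = 2.21e-05), and Hdac2 fell with it (log2 -2.95, adjusted p = 2.9e-06). Sin3a was at 1779, 1215 and 1459 in NC and 354, 520.1 and 418 in Sin3a KD (log2 -1.78, adjusted p = 0.000652), where Hdac1 was lower as well, at 1333, 2597 and 1802 (log2 -1.59, adjusted p = 0.00297). The library totals lay between 11.9 M and 13.5 M normalised counts. The depth estimated from the smallest steps between values was 8.44 M reads (NC replicate 3) to 16.9 M (NC replicate 1). NC replicate 3 had the largest share of genes at 0, 28.4%, and lay away from the others on principal component 1 (-96.6, against -16.8 and -20.7 in NC replicates 1 and 2). Of the 8 markers of the morula, all were detected in every group, but their summed value was 25713 to 28109.6 in Hdac1/2 cKD against 37047 to 39969 in NC. In Sin3a KD it was 35468 to 39125. Of the 8, 5 were called lower in Hdac1/2 cKD (62.5%, against 15.6% of all tested genes) and 4 with equal totals. They include the trophectoderm genes Cdx2 (log2 -2.72, adjusted p = 2.9e-06), Gata3 (log2 -0.98, adjusted p = 0.00084) and Tead4 (log2 -0.68, adjusted p = 0.0035). In Sin3a KD 1 was lower, Nanog (log2 -1.12, adjusted p = 0.0194). Markers of cumulus cells (6 of 8 listed genes in the table) had sums of 7.77 to 27.1 in NC, where Cyp19a1 was at 0. In Hdac1/2 cKD these sums were 37.4 to 56.6, and in Sin3a KD 33.9 to 54.9. Oviduct markers (5 of 5) had sums of 28.4 to 139 (NC), 107 to 192 (Hdac1/2 cKD) and 75.9 to 87.5 (Sin3a KD, with Muc1 at 0). The sums of oocyte markers (6 of 6) were 151 to 247, 243 to 251 and 218 to 256 in the same order. Blood markers (2 of 4) summed to at most 40.96 in any library and sperm markers (4 of 4) to at most 6.85. The part of these markers and cell types in the results below was not tested.

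The Slc messenger RNA was concentrated in a small set of carriers. On the scale of normalised counts per kb of transcript, 15 of the 227 genes held 50% of the summed level in NC, and the 10 highest held 41.5%. The highest level was that of Slc25a3, the mitochondrial phosphate carrier, at 4479.6 ± 351 per kb (mean ± SD, n = 3), and then Slc25a5, an adenine nucleotide translocase that exchanges ATP for ADP, at 3957 ± 338. The NC libraries of these 2 genes overlapped on this scale. The creatine transporter Slc6a8 stood at 2793 ± 253 per kb and Slc38a6, of the neutral amino acid carriers, at 2196 ± 178. Below them came Slc3a2 (the heavy chain that pairs with several amino acid carriers), Slc25a20 (the carnitine and acylcarnitine carrier) and Slc12a2 (the sodium, potassium and chloride cotransporter NKCC1), at 1629 ± 56.7, 1567 ± 136 and 1455 ± 144 per kb. Slc5a6, the carrier of biotin and pantothenate, Slc1a1, a glutamate and aspartate transporter, and Slc43a3 followed at 1434 ± 218, 1362 ± 175 and 1266 ± 182, and from Slc3a2 down each of these 6 lay within the spread of the next. Up to 31.4% of the 31-base words of Slc38a6, Slc25a5, Slc1a1 and Slc5a6 are shared with any 1 other gene or pseudogene in the annotation, so their levels depend on how reads were divided. The share over all partners together was not computed and can be larger. At the other end, the median of the 227 genes in NC was 44.9 per kb.

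**Figure D1:**
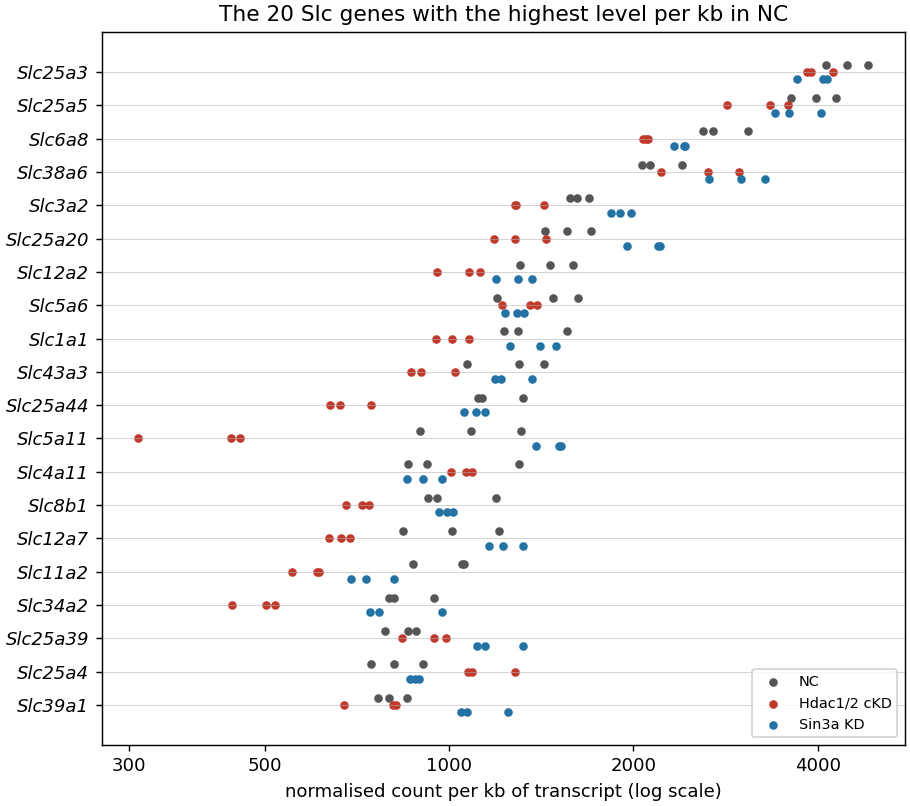
Levels of the 20 Slc genes that stood highest per kb in NC. The horizontal axis, on a log scale, gives normalised counts per kb of transcript, and each point is 1 library, coloured by group. Slc25a3, at a mean of 4479.6 per kb in NC, and Slc25a5, at 3957, lead in NC.

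Relative to NC, more Slc genes passed the test in Hdac1/2 cKD than in Sin3a KD, and in Hdac1/2 cKD more of them fell than rose. In Hdac1/2 cKD 20 of the 227 rose and 32 fell (limma, Benjamini-Hochberg adjusted p below 0.05 over 13343 tested genes). That is 22.9% of the members, against 15.6% of all tested genes, of which 7.81% rose and 7.8% fell. In Sin3a KD 9 rose and 10 fell, 8.37% against 7.96% of all tested genes (3.6% higher, 4.36% lower), a share near the background. Slc7a3 passed the level rule through Hdac1/2 cKD alone, so its groups had to differ there. Slc16a9 passed mainly through it, so the rule favoured its rise. Neither call counts as support. Without Slc7a3 the Hdac1/2 cKD counts were 19 and 32 of 226 (22.6%), and without both genes 18 and 32 of 225 (22.2%). Between the knockdowns, 17 were higher and 31 lower in Hdac1/2 cKD than in Sin3a KD, 21.1% against 17.3% (8.49% higher, 8.78% lower). The 17 include Slc7a3, whose call in this comparison does not count as support either. Leaving Slc7a3 out gave 16 higher and 31 lower of 226 (20.8%). The NC libraries serve in both comparisons with NC, and each knockdown serves in 2 as well, so the 3 counts are not independent. Throughout, log2 values between the knockdowns are of Hdac1/2 cKD over Sin3a KD. The Hdac1/2 cKD count of 52 dropped to between 29 and 33 without any 1 of its own 3 libraries or NC replicate 1. The Sin3a KD count of 19 was 5 without Sin3a KD replicate 3, 6 without Sin3a KD replicate 1 and 11 without NC replicate 1. The count of 48 between the knockdowns was 28 without Hdac1/2 cKD replicate 1 and 29 without Sin3a KD replicate 1.

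The split between higher and lower depends on the scaling. When every library was set to the same total, the median log2 fold change of all tested genes moved from 0.03 to 0.15 in Hdac1/2 cKD and from 0.03 to 0.12 in Sin3a KD. The members then divided into 24 higher and 21 lower in Hdac1/2 cKD (53.3% higher, from 38.5%) and into 15 higher and 6 lower in Sin3a KD (71.4% higher, from 47.4%). The comparison of both knockdowns kept 17 and 31. The median member changed by 0.02, 0.03 and 0.02 on the log2 scale in the order of comparisons above, beside 0.03, 0.03 and 0.01 for all tested genes. In 86 members (37.9%) the Hdac1/2 cKD libraries did not overlap those of NC, against 33.1% of all tested genes. For Sin3a KD and NC these were 53 members (23.3%) against 27.1%, and for both knockdowns 94 (41.4%) against 39.7%.

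**Figure D2:**
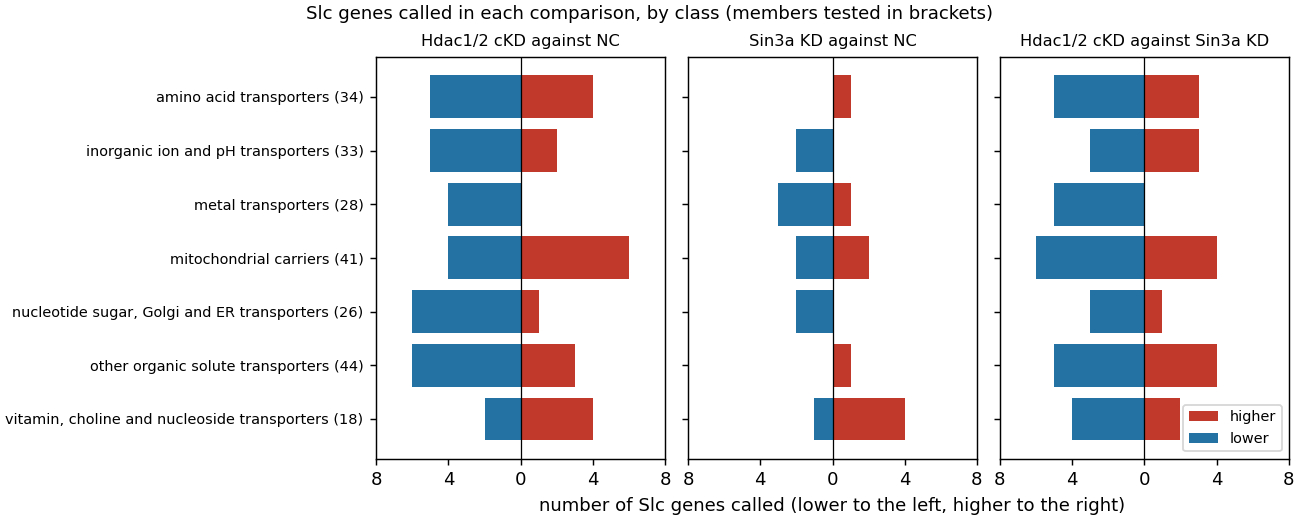
Number of Slc genes called in each comparison, by the class of their substrate (class sizes in brackets). Bars to the right count genes that were higher in the group named first, bars to the left genes that were lower. Metal transporters have 4 genes to the left and 0 to the right in Hdac1/2 cKD against NC, and mitochondrial carriers 4 and 6. These calls are 14.3% and 24.4% of the 2 classes, against 15.6% of all tested genes.

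The summed Slc signal was lower in Hdac1/2 cKD. The 227 genes added up to 172583, 165476 and 160694 normalised counts in NC, 145133, 145061 and 142981 in Hdac1/2 cKD and 168181, 166538 and 164421 in Sin3a KD. All 3 Hdac1/2 cKD sums lay below all others, at a mean of 86.9% of NC. As a share of the library total the gap was narrower, from 1.23% to 1.29% in NC, from 1.18% to 1.20% in Hdac1/2 cKD and from 1.32% to 1.38% in Sin3a KD. The shares of the 3 groups did not overlap. Exact permutation of 3 against 3 libraries cannot give a two-sided p below 0.1, and the sums are given as a description with no test. By class, Hdac1/2 cKD stood at 78.6% of the NC mean for carriers of ions and protons and 81.6% for carriers of metals, while carriers of vitamins, choline and nucleosides stood at 109% in Hdac1/2 cKD and 118% in Sin3a KD. As shares of the library total these were closer to NC for ions (85.1%) and metals (88.3%) in Hdac1/2 cKD, and further from it for vitamins, choline and nucleosides (118% in Hdac1/2 cKD and 126% in Sin3a KD). Sums follow their most abundant genes. Classes were set by family number, so Slc5a6, the carrier of biotin and pantothenate, is not in the vitamin class. It made up 24.6%, 25.3% and 22.3% of the sums of other organic solutes in NC, Hdac1/2 cKD and Sin3a KD. Those sums had means of 20002, 17991 and 19763, against 7358, 8032 and 8704 for the vitamin class. The percents above for vitamins, choline and nucleosides therefore leave out a vitamin carrier of high level.

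**Figure D3:**
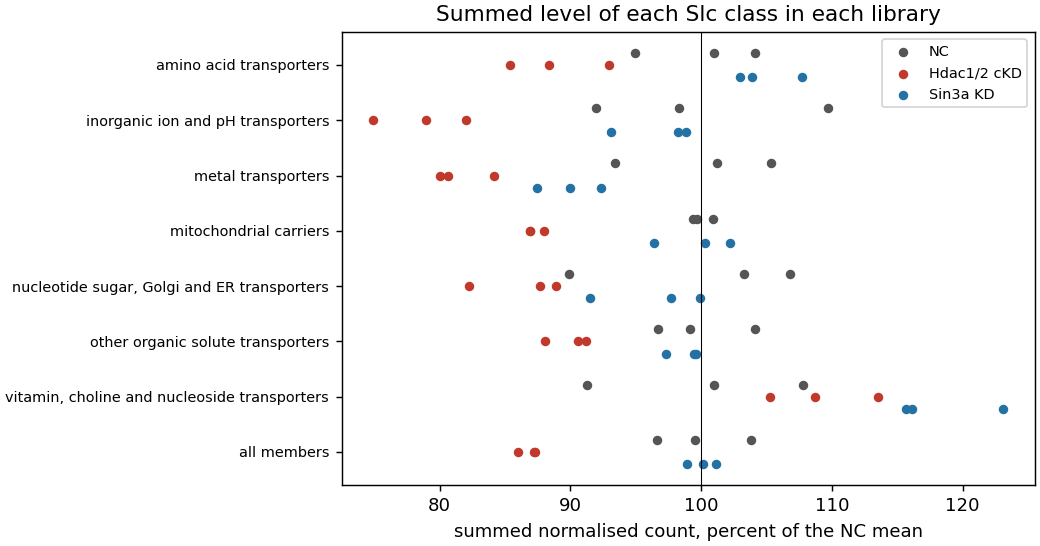
Summed normalised count of each Slc class in each library, as a percent of the NC mean of that class. Each point is 1 library. All 3 Hdac1/2 cKD libraries lie between 74.9% and 82.0% for ion and pH transporters, below every NC library, and at 105% to 114% for vitamin, choline and nucleoside transporters. The vitamin carrier Slc5a6 is counted with other organic solutes.

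In all, 74 genes passed in at least 1 comparison and 153 in none. Every called gene had groups that did not overlap. Each therefore had to keep its direction within sequencing lane 3 and, for Hdac1/2 cKD against NC, within lane 2, so this is no separate check of the lanes. Those lanes hold 1 or 2 libraries of a group, and the genes were chosen on the same libraries. For Hdac1/2 cKD against NC, 7 of the 20 higher and 12 of the 32 lower calls were kept under each alternative processing tried. For Sin3a KD against NC this held for 1 of 19, and for the comparison of both knockdowns for 4 of 17 and 13 of 31. Of the 52, 19 and 48 calls, fitting lane as a factor ended 20, 18 and 27, and leaving out variance trend and robust moderation ended 21, 17 and 18. For the other member calls given below with values, the alternatives that ended the call are named, each with its adjusted p and single libraries with the highest. The lists leave out 1 alternative, the fit without both NC replicate 1 and Sin3a KD replicate 1, the 2 libraries alone on their lanes. It ended 25, 18 and 21 of the 52, 19 and 48 calls. In Sin3a KD against NC it ended every call but that of Slc35f2. In Hdac1/2 cKD against NC it kept the listed calls of Slc4a3, Slc6a8, Slc7a3, Slc12a2, Slc16a9, Slc35c2, Slc44a1 and Slc44a2. The other listed calls there were ended. Among the listed calls between the knockdowns it ended that of Slc17a5.

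**Figure D4:**
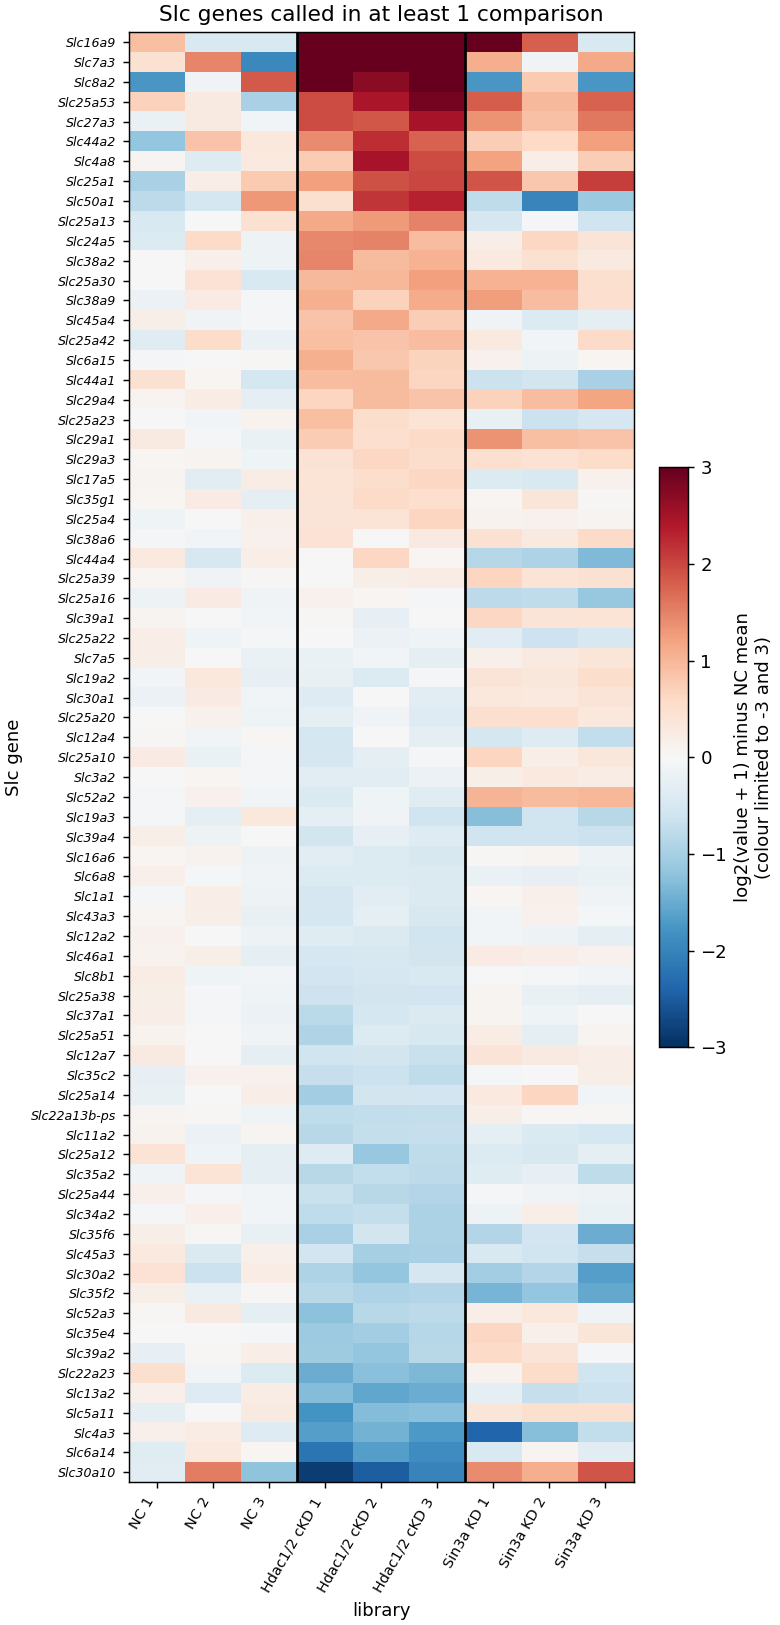
Slc genes called in at least 1 comparison (73 of the 74), 1 line per gene and 1 column per library. Colour gives log2(normalised count + 1) minus the mean of the NC libraries, limited to -3 and 3, red above and blue below NC. Slc7a3 and Slc16a9 are red in the Hdac1/2 cKD columns, and Slc6a14 and Slc30a10 are blue there. The level rule forced or favoured the differences of Slc7a3, Slc16a9 and Slc30a10, so these do not count as support.

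The fall with the smallest adjusted p in Hdac1/2 cKD was that of Slc5a11 (chromosome 7, 123214780 to 123273253, forward strand, GRCm38), which encodes the sodium-coupled myo-inositol transporter SMIT2. It was at 2149.9, 2602 and 3146 normalised counts in NC, 744, 1055 and 1091 in Hdac1/2 cKD and 3325, 3646 and 3617 in Sin3a KD. The Hdac1/2 cKD libraries lay far below the rest, and the Sin3a KD libraries lay above those of NC. The change was called against NC (log2 -1.45, SE 0.16, adjusted p = 9.51e-05) and against Sin3a KD (log2 -1.89, SE 0.16, adjusted p = 1.15e-05), while Sin3a KD against NC missed the threshold (log2 0.44, adjusted p = 0.109). Slc6a14 (chromosome X, 21714896 to 21742355, forward strand) encodes a carrier of neutral and cationic amino acids and was at 291, 465 and 395 normalised counts in NC, 81.8, 118 and 103 in Hdac1/2 cKD and 275, 397 and 299 in Sin3a KD. Its Hdac1/2 cKD libraries were the 3 lowest (log2 -1.90, SE 0.24, adjusted p = 0.000235), and NC and Sin3a KD overlapped.

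In the other direction, Slc27a3 (chromosome 3, 90385239 to 90389938, reverse strand), of the family that takes up fatty acids and joins them to coenzyme A, was at 91.8, 127 and 98.9 normalised counts in NC, 411, 382 and 586 in Hdac1/2 cKD and 267, 195 and 316 in Sin3a KD. The 3 groups did not overlap, with NC lowest and Hdac1/2 cKD highest. It rose in Hdac1/2 cKD (log2 2.09, SE 0.25, adjusted p = 0.000138) and in Sin3a KD (log2 1.27, SE 0.25, adjusted p = 0.00897). The Sin3a KD call was lost without Sin3a KD replicate 3 (adjusted p = 0.053), with lane as a factor (0.159) and with neither trend nor robust moderation (0.0537). Slc38a2 (chromosome 15, 96687392 to 96699730, reverse strand), the neutral amino acid carrier SNAT2, whose gene responds to amino acid shortage, was at 142, 157 and 126 normalised counts in NC, 389, 273 and 293 in Hdac1/2 cKD and 174, 193 and 169 in Sin3a KD. All Hdac1/2 cKD libraries exceeded all others (log2 1.15, SE 0.21, adjusted p = 0.00295), and Sin3a KD lay between them and NC without passing the test (log2 0.33, adjusted p = 0.365).

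The promoters of these 4 genes are shown because they carry 2 of the largest falls and 2 of the rises that held under every alternative. They are the 250 bases 5′ of the start in RefSeq on GRCm38.p6, written 5′ to 3′ on the gene's strand: chr3:90389939-90390188 and chr15:96699729-96699978 on the reverse strand, and chr7:123214616-123214865 and chrX:21714650-21714899 on the forward strand. Capitals mark the GC box GGGCGG and the CCAAT box CCAAT on either strand (so that CCGCCC and ATTGG are their reverse complements).

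Slc27a3: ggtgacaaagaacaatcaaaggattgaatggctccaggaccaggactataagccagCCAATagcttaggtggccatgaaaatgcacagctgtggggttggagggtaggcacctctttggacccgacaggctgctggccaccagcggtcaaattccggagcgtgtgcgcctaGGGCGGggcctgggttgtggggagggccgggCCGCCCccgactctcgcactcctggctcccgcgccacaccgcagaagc

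Slc38a2: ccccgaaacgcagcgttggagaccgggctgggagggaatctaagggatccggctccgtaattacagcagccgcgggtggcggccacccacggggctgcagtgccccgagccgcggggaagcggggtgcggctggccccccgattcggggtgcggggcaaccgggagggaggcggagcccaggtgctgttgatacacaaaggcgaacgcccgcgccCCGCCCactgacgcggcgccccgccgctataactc

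Slc5a11: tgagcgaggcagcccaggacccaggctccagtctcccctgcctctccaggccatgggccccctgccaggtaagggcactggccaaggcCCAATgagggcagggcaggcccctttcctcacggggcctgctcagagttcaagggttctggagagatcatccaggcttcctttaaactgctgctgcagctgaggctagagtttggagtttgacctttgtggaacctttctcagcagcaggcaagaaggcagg

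Slc6a14: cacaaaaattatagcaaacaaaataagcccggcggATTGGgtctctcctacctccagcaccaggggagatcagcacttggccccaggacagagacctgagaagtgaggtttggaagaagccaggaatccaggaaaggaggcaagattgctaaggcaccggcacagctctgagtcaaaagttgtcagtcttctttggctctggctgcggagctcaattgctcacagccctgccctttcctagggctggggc

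The windows of both genes that rose hold at least 1 GC box, 2 in Slc27a3 and 1 in Slc38a2, and 13 and 30 CpG dinucleotides. Those of both genes that fell hold 0 GC boxes and 2 and 4 CpG dinucleotides. RefSeq and GENCODE starts can differ. The Slc5a11 window ends at 123214865, past the GENCODE start at 123214780, so part of it lies inside the gene as annotated there. Over the members, RefSeq windows were found for 177 of 227 genes (225 windows), and 60.0% of these held a GC box, against 32.7% of all 32851 windows. The full set covers 27025 genes, more than the 13343 tested here, so it is not matched to the members for expression. A CCAAT box stood in 33.3% of member windows and in 33.8% of all. Among members that rose in Hdac1/2 cKD (20 windows of 17 genes) 75% held a GC box and 50% a CCAAT box, with a median of 16 CpG. Among members that fell (24 windows of 21 genes) these were 54.2%, 16.7% and 12. Members not called in Hdac1/2 cKD against NC (181 windows of 139 genes) had 59.1%, 33.7% and 13. In Sin3a KD the order of the GC box shares was the opposite, 66.7% among members that rose (15 windows of 8 genes) and 80% among those that fell (10 windows of 8 genes), with CCAAT boxes in 26.7% and 10%. These shares are descriptions, windows of 1 gene can overlap, and a match of letters is not a site.

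**Figure D5:**
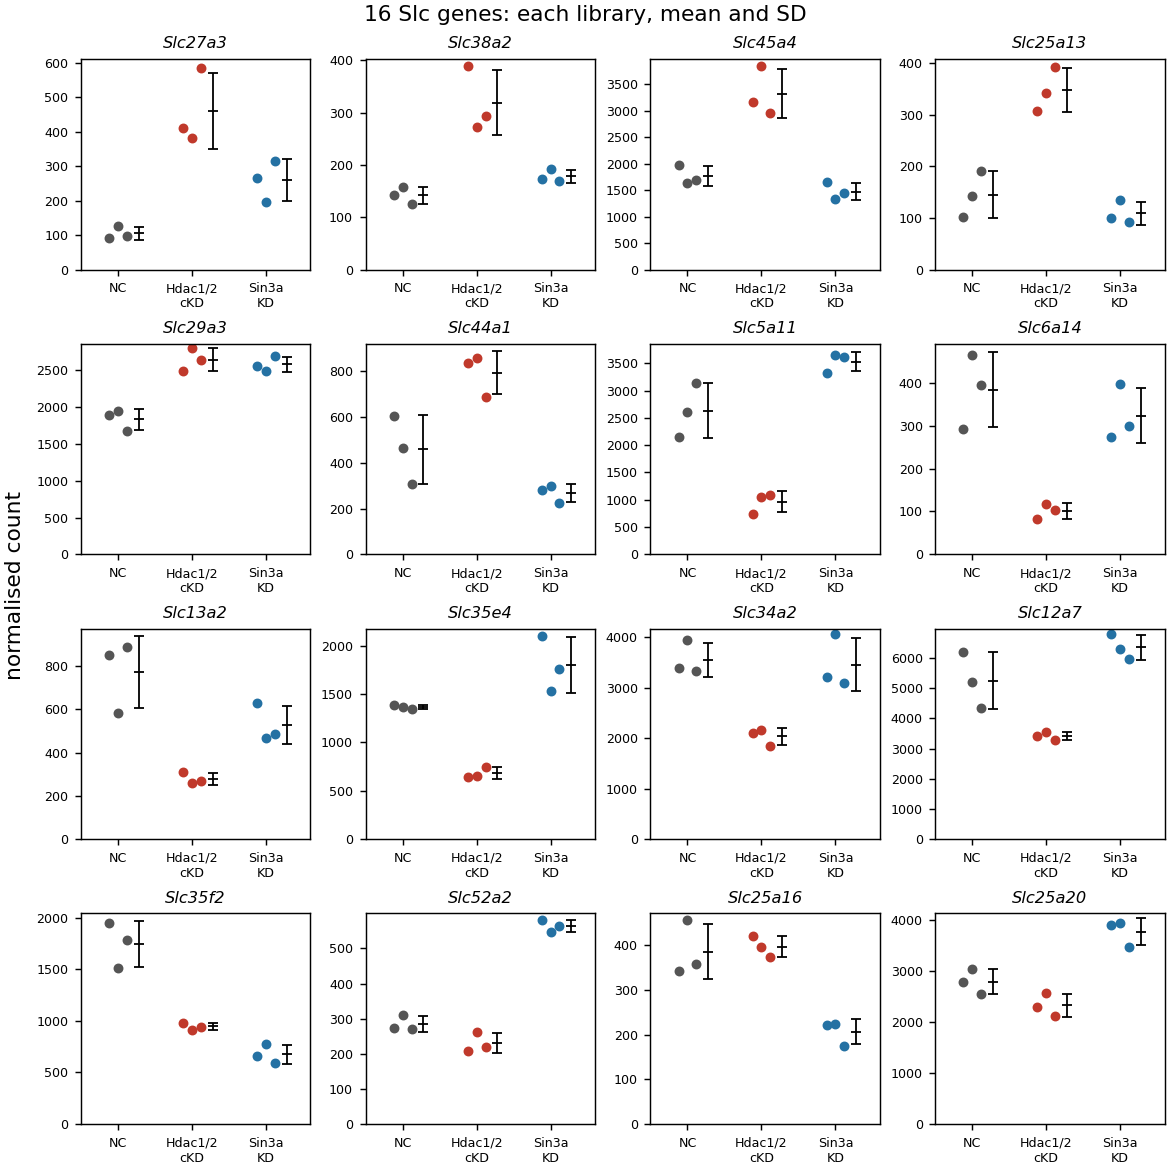
Normalised counts of 16 Slc genes in each library (points), with the mean and SD of each group of 3 (bars at the side). Each panel has its own linear axis that starts at 0. Slc52a2 lies between 547 and 580.3 in Sin3a KD and between 209 and 310.4 elsewhere, and Slc35e4 between 640.5 and 751 in Hdac1/2 cKD and at 1344 or more elsewhere.

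Of the 34 carriers of amino acids and related solutes, 4 rose and 5 fell in Hdac1/2 cKD and 1 rose and 0 fell in Sin3a KD. Between the knockdowns 3 were higher and 5 lower in Hdac1/2 cKD. With equal library totals the 3 pairs of counts were 4 and 2, 2 and 0, and 3 and 5. The calls are 26.5% of the class in Hdac1/2 cKD and 2.94% in Sin3a KD, against 15.6% and 7.96% of all tested genes. Between the knockdowns they are 23.5%, against 17.3%. The class median was 0.28 on the log2 scale in Hdac1/2 cKD and 0.24 in Sin3a KD. Besides Slc38a2, Slc6a15, a carrier of branched-chain amino acids and proline, rose in Hdac1/2 cKD (log2 0.85, SE 0.20, adjusted p = 0.013). It was at 156, 163 and 166 normalised counts in NC, 341, 284 and 256 in Hdac1/2 cKD and 176, 146 and 169 in Sin3a KD, with Hdac1/2 cKD above both other groups. The Slc6a15 call was lost without Hdac1/2 cKD replicate 1 (adjusted p = 0.0656) and with lane as a factor (0.0709). Slc7a3, a carrier of arginine and lysine, was nearly silent outside Hdac1/2 cKD, at 4.29, 9.61 and 0 normalised counts in NC, 62.7, 40.8 and 38.9 in Hdac1/2 cKD and 7.18, 2.55 and 7.37 in Sin3a KD. It reached the threshold in no other group and therefore had to differ, so its call (log2 3.63, adjusted p = 0.0147), which the counts include, supports nothing. Without it 3 of 33 amino acid carriers rose in Hdac1/2 cKD and 5 fell, and against Sin3a KD 2 were higher and 5 lower. The Slc7a3 call was lost without any 1 of Hdac1/2 cKD replicates 1, 2 and 3 (adjusted p up to 0.0693). Slc38a9, the lysosomal carrier through which mTORC1 senses arginine, went from 65.7 ± 10.02 (mean ± SD, n = 3) in NC to 129 ± 20.7 in Hdac1/2 cKD (log2 0.96, adjusted p = 0.038) and 125 ± 32.3 in Sin3a KD (log2 0.89, adjusted p = 0.0737). The Slc38a9 call was lost without any 1 of Hdac1/2 cKD replicates 1, 2 and 3, NC replicates 1 and 3 and Sin3a KD replicate 2 (adjusted p up to 0.128), with lane as a factor (0.133), with only the 2 groups compared (0.0604), without the filter on low values (0.0597) and with the replicate number as a block (0.0519).

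Genes of high level were among the amino acid carriers that fell in Hdac1/2 cKD. The creatine transporter Slc6a8 was at 12203, 10708 and 10300.4 normalised counts in NC, 8375, 8302 and 8212 in Hdac1/2 cKD and 9593, 9254 and 9636 in Sin3a KD. Hdac1/2 cKD lay below NC in every library (log2 -0.41, SE 0.08, adjusted p = 0.00511). The Slc6a8 call was lost with neither trend nor robust moderation (adjusted p = 0.0534). Slc1a1 went from 5176 ± 665 in NC to 3851 ± 237 in Hdac1/2 cKD (log2 -0.42, adjusted p = 0.0187), with Sin3a KD at 5272 ± 456. This gene shares 31.4% of its 31-base words with 4430402I18Rik. The Slc1a1 call was lost without any 1 of Hdac1/2 cKD replicates 1 and 3 and NC replicate 2 (adjusted p up to 0.0795), with neither trend nor robust moderation (0.0943) and with equal library totals (0.0634). Slc43a3, which sits in an amino acid carrier family but is known to take up purine nucleobases, went from 3269 ± 471 to 2402 ± 215 (log2 -0.44, adjusted p = 0.0246). The Slc43a3 call was lost without any 1 of Hdac1/2 cKD replicates 1 and 3 and NC replicates 1 and 2 (adjusted p up to 0.098), with neither trend nor robust moderation (0.104) and with equal library totals (0.0736). The heavy chain Slc3a2 and its light chain Slc7a5 were both lower in Hdac1/2 cKD than in Sin3a KD: Slc3a2 was at 4556, 4754 and 4438 normalised counts in NC, 3607, 3620.4 and 4027 in Hdac1/2 cKD and 5165, 5573 and 5358 in Sin3a KD. The Sin3a KD libraries were the highest and those of Hdac1/2 cKD the lowest (log2 -0.52, SE 0.09, adjusted p = 0.00138 between the knockdowns). Against NC its fall in Hdac1/2 cKD was called too (log2 -0.29, adjusted p = 0.0393). That call was lost without any 1 of Hdac1/2 cKD replicates 1 and 2, NC replicates 1 and 2 and Sin3a KD replicates 1 and 3 (adjusted p up to 0.141), with lane as a factor (0.102), with neither trend nor robust moderation (0.123), with equal library totals (0.185), with only the 2 groups compared (0.0718) and without the filter on low values (0.0626). Slc7a5 was at 1757 ± 119.8 in Hdac1/2 cKD and 2385 ± 179 in Sin3a KD (log2 -0.44, adjusted p = 0.0183). The Slc7a5 call was lost without any 1 of Hdac1/2 cKD replicates 1 and 3 and Sin3a KD replicates 2 and 3 (adjusted p up to 0.0744) and with neither trend nor robust moderation (0.075). The 1 amino acid carrier called in Sin3a KD against NC was Slc38a6, at 8625 ± 699 in NC and 11702 ± 1227 in Sin3a KD (log2 0.44, adjusted p = 0.0338). Of its 31-base words 31.3% are shared with Noct, so its count is uncertain. The Slc38a6 call was lost without any 1 of Hdac1/2 cKD replicate 3, NC replicates 1 and 2 and Sin3a KD replicates 1 and 3 (adjusted p up to 0.143), with lane as a factor (0.294) and with neither trend nor robust moderation (0.152).

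Among the 41 mitochondrial carriers, 6 rose and 4 fell in Hdac1/2 cKD and 2 rose and 2 fell in Sin3a KD. Against Sin3a KD, Hdac1/2 cKD had 4 higher and 6 lower. With equal totals these counts were 7 and 2, 4 and 1, and 4 and 6. The calls against NC are 24.4% and 9.76% of the class, beside 15.6% and 7.96% of all tested genes. Between the knockdowns they are 24.4%, beside 17.3%. The class medians against NC were -0.01 and -0.03. Slc25a44, which carries branched-chain amino acids into mitochondria, was at 4721, 4049 and 3991 normalised counts in NC, 2671, 2371 and 2289.9 in Hdac1/2 cKD and 4099.9, 3959.9 and 3787 in Sin3a KD. Hdac1/2 cKD was lowest in each library (log2 -0.80, SE 0.10, adjusted p = 0.000254), and NC and Sin3a KD overlapped. Slc25a53, a carrier of low level, was at 29.4, 21.8 and 8.49 normalised counts in NC, 72, 101 and 136 in Hdac1/2 cKD and 64.4, 35.9 and 62.9 in Sin3a KD and rose in Hdac1/2 cKD (log2 2.43, SE 0.48, adjusted p = 0.00418).

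Next come 2 pairs of closely related mitochondrial carriers, set side by side after their values were seen. Slc25a12 and Slc25a13 encode aspartate and glutamate exchangers of the malate-aspartate shuttle. Slc25a13 was at 101, 142 and 192 normalised counts in NC, 308, 343 and 392.5 in Hdac1/2 cKD and 99, 135 and 92.5 in Sin3a KD. All Hdac1/2 cKD libraries were above the rest, and the rise was called against NC (log2 1.30, SE 0.27, adjusted p = 0.00515) and against Sin3a KD (log2 1.68, SE 0.27, adjusted p = 0.000849). Slc25a12 was at 978, 669.7 and 596 normalised counts in NC, 559, 335 and 431 in Hdac1/2 cKD and 550.2, 520.0 and 606 in Sin3a KD. Its Hdac1/2 cKD libraries lay below those of NC (log2 -0.76, SE 0.21, adjusted p = 0.0266) and overlapped Sin3a KD. The Slc25a12 call was lost without any 1 of Hdac1/2 cKD replicates 2 and 3 and NC replicate 1 (adjusted p up to 0.118), with lane as a factor (0.138), with neither trend nor robust moderation (0.0928), with equal library totals (0.0562) and with only the 2 groups compared (0.0542). Of the ATP and ADP exchangers, Slc25a4 rose from 1581 ± 157 in NC to 2211 ± 221 in Hdac1/2 cKD (log2 0.48, adjusted p = 0.0105), whereas Slc25a5 was at 4906 ± 419 and 4036 ± 469 and did not pass (log2 -0.28, adjusted p = 0.103). The Slc25a4 call was lost without Hdac1/2 cKD replicate 3 (adjusted p = 0.059) and with neither trend nor robust moderation (0.0518). The difference between the changes of related genes was not tested. The citrate carrier Slc25a1 went from 45.2 ± 24.9 in NC to 138 ± 37.5 in Hdac1/2 cKD (log2 1.72, adjusted p = 0.0223), and Sin3a KD stood at 131 ± 52.5 (log2 1.59, adjusted p = 0.0507). The Slc25a1 call was lost without any 1 of Hdac1/2 cKD replicates 2 and 3 and NC replicate 1 (adjusted p up to 0.0855), with lane as a factor (0.0841) and with neither trend nor robust moderation (0.0763). Slc25a38, which supplies glycine for heme synthesis, and Slc25a51, the mitochondrial NAD carrier, fell in Hdac1/2 cKD (log2 -0.58, adjusted p = 0.0157, and log2 -0.60, adjusted p = 0.0251). The Slc25a38 call was lost without any 1 of Hdac1/2 cKD replicate 1 and NC replicate 1 (adjusted p up to 0.0605) and with lane as a factor (0.0611). The Slc25a51 call was lost without any 1 of Hdac1/2 cKD replicate 1 and NC replicate 1 (adjusted p up to 0.111), with lane as a factor (0.0975), with neither trend nor robust moderation (0.0792) and with equal library totals (0.0643).

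Other mitochondrial carriers differed in Sin3a KD. Slc25a20, which brings acylcarnitines to fatty acid oxidation, was at 2783, 3043 and 2558 normalised counts in NC, 2289, 2572 and 2115 in Hdac1/2 cKD and 3911, 3940.3 and 3479 in Sin3a KD. Sin3a KD libraries were the 3 highest, above NC (log2 0.44, SE 0.11, adjusted p = 0.0269) and above Hdac1/2 cKD (log2 -0.70, SE 0.11, adjusted p = 0.000722). The call against NC was lost without any 1 of NC replicates 1 and 3 and Sin3a KD replicates 1, 2 and 3 (adjusted p up to 0.107), with lane as a factor (0.092), with neither trend nor robust moderation (0.114) and with only the 2 groups compared (0.0511). Slc25a39, the mitochondrial glutathione carrier, went from 1419 ± 84.1 in NC to 2009 ± 189 in Sin3a KD (log2 0.50, adjusted p = 0.0179). The Slc25a39 call was lost without any 1 of Sin3a KD replicates 1 and 3 (adjusted p up to 0.0969), with lane as a factor (0.181) and with neither trend nor robust moderation (0.0851). Slc25a16 was at 343, 457 and 358 normalised counts in NC, 420.4, 396 and 374 in Hdac1/2 cKD and 221, 225 and 174 in Sin3a KD. Its Sin3a KD libraries were the 3 lowest, below NC (log2 -0.90, SE 0.19, adjusted p = 0.012) and below Hdac1/2 cKD (log2 of Hdac1/2 cKD over Sin3a KD 0.95, adjusted p = 0.00343). The call against NC was lost without Sin3a KD replicate 3 (adjusted p = 0.0592), with lane as a factor (0.105) and with neither trend nor robust moderation (0.0523). The call between the knockdowns was lost with lane as a factor (adjusted p = 0.0705). Slc25a23, an ATP-magnesium and phosphate carrier, was higher in Hdac1/2 cKD than in Sin3a KD, 381 ± 71.2 against 180.0 ± 27.5 (log2 1.07, adjusted p = 0.00268), with NC between them at 246 ± 15.9.

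Of the 33 carriers of inorganic ions and protons, 2 rose and 5 fell in Hdac1/2 cKD and 0 rose and 2 fell in Sin3a KD. In Hdac1/2 cKD 3 were higher and 3 lower than in Sin3a KD. With equal totals the counts became 3 and 5, 2 and 0, and 3 and 3, so the direction in Sin3a KD depends on the scaling. The calls against NC are 21.2% and 6.06% of the class, beside 15.6% and 7.96% of all tested genes. Between the knockdowns they are 18.2%, near the 17.3% of all tested genes. The class median was 0.21 in Hdac1/2 cKD, above 0, although more members fell than rose. Slc34a2, the sodium-dependent phosphate transporter, was at 3393, 3943 and 3332 normalised counts in NC, 2098, 2169 and 1845 in Hdac1/2 cKD and 3214, 4062 and 3104 in Sin3a KD. The Hdac1/2 cKD libraries were the 3 lowest, against NC (log2 -0.80, SE 0.12, adjusted p = 0.000799) and against Sin3a KD (log2 -0.76, adjusted p = 0.000949). Slc12a7, the potassium and chloride cotransporter KCC4, which lets cells lose volume, was at 6212, 5191 and 4331 normalised counts in NC, 3422, 3537 and 3276 in Hdac1/2 cKD and 6795, 6303 and 5965 in Sin3a KD and was again lowest in Hdac1/2 cKD (log2 -0.61, SE 0.12, adjusted p = 0.00412). Sin3a KD overlapped NC but stood well above Hdac1/2 cKD (log2 -0.90, adjusted p = 0.00028). The mitochondrial sodium and calcium exchanger Slc8b1 went from 2970.2 ± 426 in NC to 2069 ± 93.5 in Hdac1/2 cKD (log2 -0.51, adjusted p = 0.00665), with Sin3a KD at 2872 ± 78.7.

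Slc12a2 brings sodium, potassium and chloride into cells and is the ion carrier with the highest level per kb in NC. It was at 10403, 9526 and 8529.5 normalised counts in NC, 7336, 7037 and 6229 in Hdac1/2 cKD and 8899.8, 8461 and 7768 in Sin3a KD. Hdac1/2 cKD was below NC in every library (log2 -0.46, SE 0.10, adjusted p = 0.00703). The Slc12a2 call was lost with neither trend nor robust moderation (adjusted p = 0.0628). The anion exchanger Slc4a3 was at 161, 170.4 and 110.4 normalised counts in NC, 45.7, 53.9 and 43 in Hdac1/2 cKD and 27.1, 58.7 and 87 in Sin3a KD, lower in both knockdowns (log2 -1.59, adjusted p = 0.0161 in Hdac1/2 cKD and log2 -1.46, adjusted p = 0.04 in Sin3a KD). Its call in Hdac1/2 cKD was lost without any 1 of Hdac1/2 cKD replicates 1 and 3 and NC replicate 1 (adjusted p up to 0.0567). Its call in Sin3a KD was lost without any 1 of Hdac1/2 cKD replicates 1, 2 and 3, NC replicates 1 and 2 and Sin3a KD replicates 1 and 2 (adjusted p up to 0.154), with lane as a factor (0.412), with neither trend nor robust moderation (0.0966), with equal library totals (0.0525), with only the 2 groups compared (0.0694) and with the replicate number as a block (0.0516). The other ion carrier that fell in Sin3a KD was Slc12a4 (log2 -0.55, adjusted p = 0.0367), the potassium and chloride cotransporter KCC1. The Slc12a4 call was lost without any 1 of Hdac1/2 cKD replicate 3, NC replicates 1 and 3 and Sin3a KD replicates 1 and 3 (adjusted p up to 0.153), with lane as a factor (0.201), with neither trend nor robust moderation (0.115) and with equal library totals (0.0581). The ion carriers that rose in Hdac1/2 cKD were Slc24a5 and Slc4a8. Slc24a5, a potassium-dependent sodium and calcium exchanger known from pigment cells, was at 102, 205 and 122 normalised counts in NC, 372, 385 and 261 in Hdac1/2 cKD and 154, 213 and 181 in Sin3a KD (log2 1.28, SE 0.27, adjusted p = 0.0069). Of its 31-base words 37.2% are shared with Myef2, so its count is uncertain. Slc4a8, a sodium-driven chloride and bicarbonate exchanger, went from 19 ± 4.58 to 71.6 ± 37.8 (log2 1.73, adjusted p = 0.034). The Slc4a8 call was lost without any 1 of Hdac1/2 cKD replicates 2 and 3 and NC replicates 1 and 2 (adjusted p up to 0.163), with lane as a factor (0.0841), with neither trend nor robust moderation (0.0554), with only the 2 groups compared (0.0538) and with the replicate number as a block (0.052).

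Of 28 metal carriers 0 rose and 4 fell in Hdac1/2 cKD (0 and 3 at equal totals). These are 14.3% of the class, near the 15.6% called among all tested genes, of which 7.81% rose. In Sin3a KD 1 rose and 3 fell (14.3%, against 7.96%), and 0 were higher and 5 lower in Hdac1/2 cKD than in Sin3a KD (1 and 2, and 0 and 5, with equal totals). Those 5 are 17.9% of the class, near the 17.3% of all tested genes called between the knockdowns. The class median was -0.08 in Hdac1/2 cKD and -0.03 in Sin3a KD. Slc11a2, the carrier of ferrous iron DMT1, was at 4676, 3862 and 4631 normalised counts in NC, 2444, 2684 and 2707 in Hdac1/2 cKD and 3583, 3229 and 3055 in Sin3a KD. The 3 groups did not overlap, with NC highest and Hdac1/2 cKD lowest. It fell in Hdac1/2 cKD (log2 -0.75, SE 0.11, adjusted p = 0.00055) and in Sin3a KD (log2 -0.41, SE 0.11, adjusted p = 0.0307). The Sin3a KD call was lost without any 1 of NC replicates 1 and 3 and Sin3a KD replicates 1, 2 and 3 (adjusted p up to 0.125), with lane as a factor (0.0862), with neither trend nor robust moderation (0.123), with equal library totals (0.0582) and with only the 2 groups compared (0.0685).

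Family Slc39 holds zinc importers. Slc39a2 was at 333, 408 and 457 normalised counts in NC, 187, 178 and 222 in Hdac1/2 cKD and 594, 522 and 378 in Sin3a KD, lowest in Hdac1/2 cKD (log2 -1.02, SE 0.21, adjusted p = 0.0048 against NC). Slc39a4 was at 2354, 1856 and 2055 normalised counts in NC, 1409, 1739 and 1595 in Hdac1/2 cKD and 1364, 1366 and 1334 in Sin3a KD. It was lower in both knockdowns than in NC, with log2 -0.40, adjusted p = 0.0354 in Hdac1/2 cKD and log2 -0.62, adjusted p = 0.00869 in Sin3a KD. The Hdac1/2 cKD call was lost without any 1 of Hdac1/2 cKD replicates 1 and 3, NC replicates 1 and 3 and Sin3a KD replicate 1 (adjusted p up to 0.148), with lane as a factor (0.172), with neither trend nor robust moderation (0.104), with equal library totals (0.0952), with only the 2 groups compared (0.0667) and without the filter on low values (0.0551). The Sin3a KD call was lost with lane as a factor (adjusted p = 0.0998) and with neither trend nor robust moderation (0.0664). Slc39a1 went from 1904 ± 109 in NC to 2649 ± 262 in Sin3a KD (log2 0.47, adjusted p = 0.0231), and 26.4% of its 31-base words are shared with a pseudogene. The Slc39a1 call was lost without any 1 of NC replicate 3 and Sin3a KD replicates 1 and 3 (adjusted p up to 0.115), with lane as a factor (0.172) and with neither trend nor robust moderation (0.102). Among the exporters, Slc30a2, which loads zinc into vesicles, fell in Sin3a KD from 847 ± 296 to 363 ± 93.2 (log2 -1.19, adjusted p = 0.0254). The Slc30a2 call was lost without any 1 of NC replicates 1 and 3 and Sin3a KD replicates 1 and 3 (adjusted p up to 0.104), with lane as a factor (0.0533) and with neither trend nor robust moderation (0.105). Slc30a10, a manganese exporter, was at 15.1, 57 and 7.77 normalised counts in NC, 1.78, 2.61 and 4.05 in Hdac1/2 cKD and 53.1, 41.6 and 74 in Sin3a KD. Its Hdac1/2 cKD values are so low that the fitted fold depends on the pseudocount. The highest of them was below every Sin3a KD library (log2 -3.91, SE 0.72, adjusted p = 0.00231), and the NC libraries spread widely (log2 -2.44, adjusted p = 0.034 in Hdac1/2 cKD against NC). Slc30a10 met the level rule through Sin3a KD and NC alone, the groups where it is higher. The rule therefore favoured its fall, and neither call counts as support, although the counts include them. The call against NC was lost without any 1 of Hdac1/2 cKD replicates 1, 2 and 3, NC replicates 1 and 2 and Sin3a KD replicates 1, 2 and 3 (adjusted p up to 0.121), with lane as a factor (0.0781), with neither trend nor robust moderation (0.0537), with only the 2 groups compared (0.125) and with a pseudocount of 5 (0.0501). Slc30a1, which exports zinc from the cell, was at 875 ± 129 in Hdac1/2 cKD and 1300.2 ± 41 in Sin3a KD (log2 -0.58, adjusted p = 0.0125). The Slc30a1 call was lost without any 1 of Hdac1/2 cKD replicates 1 and 3 (adjusted p up to 0.0593) and with neither trend nor robust moderation (0.0539).

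Of the 26 carriers of nucleotide sugars and of the Golgi and endoplasmic reticulum, 1 rose and 6 fell in Hdac1/2 cKD and 0 rose and 2 fell in Sin3a KD. In Hdac1/2 cKD 1 was higher and 3 lower than in Sin3a KD. Equal totals gave 2 and 4, 1 and 2, and 1 and 3. The calls against NC are 26.9% and 7.69% of the class, beside 15.6% and 7.96% of all tested genes. Between the knockdowns they are 15.4%, beside 17.3%. The class medians in the comparisons with NC were 0.02 (Hdac1/2 cKD) and 0.06 (Sin3a KD). Slc35e4 was at 1387, 1369 and 1344 normalised counts in NC, 640.5, 658 and 751 in Hdac1/2 cKD and 2104, 1529 and 1762 in Sin3a KD. Its Hdac1/2 cKD libraries were the lowest and its Sin3a KD libraries the highest. It fell against NC (log2 -1.0, SE 0.13, adjusted p = 0.00031) and differed between the knockdowns (log2 -1.39, SE 0.13, adjusted p = 2.18e-05), but Sin3a KD against NC missed the threshold (log2 0.38, adjusted p = 0.089). Slc35f2, known for bringing the drug YM155 into cells, was at 1954, 1510.4 and 1782 normalised counts in NC, 984, 913 and 943 in Hdac1/2 cKD and 658, 777 and 595 in Sin3a KD. The order was NC, Hdac1/2 cKD, Sin3a KD without overlap, and both falls were called (log2 -0.88, SE 0.14, adjusted p = 0.000955 in Hdac1/2 cKD, and log2 -1.37, SE 0.14, adjusted p = 0.000802 in Sin3a KD). It was the 1 member whose Sin3a KD call against NC held under every alternative.

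Slc35f6 was lower in both knockdowns, at 683, 615 and 518 normalised counts in NC, 305, 412 and 313 in Hdac1/2 cKD and 329, 401 and 214 in Sin3a KD (log2 -0.82, adjusted p = 0.0252 in Hdac1/2 cKD and log2 -0.98, adjusted p = 0.0194 in Sin3a KD). The Hdac1/2 cKD call was lost without any 1 of Hdac1/2 cKD replicates 1 and 3 and NC replicates 1 and 2 (adjusted p up to 0.0915), with lane as a factor (0.102) and with neither trend nor robust moderation (0.0821). The Sin3a KD call was lost without any 1 of NC replicate 1 and Sin3a KD replicates 1 and 3 (adjusted p up to 0.0828), with lane as a factor (0.202) and with neither trend nor robust moderation (0.0883). Slc35c2 fell in Hdac1/2 cKD from 400.3 ± 58.9 to 245 ± 11.3 (log2 -0.70, adjusted p = 0.0146), with Sin3a KD at 409 ± 31.8. The Slc35c2 call was lost without Hdac1/2 cKD replicate 3 (adjusted p = 0.0544). Slc35a2, which carries UDP-galactose into the Golgi, went from 243 ± 65.1 to 137 ± 4.47 (log2 -0.79, adjusted p = 0.0415). The Slc35a2 call was lost without any 1 of Hdac1/2 cKD replicates 1, 2 and 3, NC replicates 1 and 2 and Sin3a KD replicates 1 and 2 (adjusted p up to 0.124), with lane as a factor (0.0765), with neither trend nor robust moderation (0.0582), with equal library totals (0.076), with only the 2 groups compared (0.063) and without the filter on low values (0.0609). The 1 gene of the class that rose in Hdac1/2 cKD was Slc35g1, from 1669 ± 313 to 2314 ± 138 (log2 0.49, adjusted p = 0.0327). The Slc35g1 call was lost without any 1 of Hdac1/2 cKD replicates 1, 2 and 3 and NC replicates 1 and 3 (adjusted p up to 0.112), with lane as a factor (0.0814) and with neither trend nor robust moderation (0.118).

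The 44 carriers of other organic solutes (sugars, monocarboxylates, organic anions and cations, fatty acids) include Slc5a11 and Slc27a3 above. In all 3 rose and 6 fell in Hdac1/2 cKD and 1 rose and 0 fell in Sin3a KD. Against Sin3a KD, 4 were higher and 5 lower in Hdac1/2 cKD. Equal totals gave 3 and 4, 1 and 0, and 4 and 5. The calls against NC are 20.5% and 2.27% of the class, beside 15.6% and 7.96% of all tested genes. Between the knockdowns they are 20.5%, beside 17.3%. The class medians against NC were -0.08 (Hdac1/2 cKD) and 0.10 (Sin3a KD). Slc13a2, which takes up citrate and succinate with sodium, was at 849, 582 and 886 normalised counts in NC, 309.7, 258 and 270.5 in Hdac1/2 cKD and 627, 469 and 484 in Sin3a KD. Hdac1/2 cKD was lowest (log2 -1.44, SE 0.19, adjusted p = 0.000321), and NC and Sin3a KD overlapped. The gene shares 21.7% of its 31-base words with the opposite-strand gene Slc13a2os. Slc45a4, of a family of proton-coupled sugar carriers, was at 1973, 1635 and 1690.4 normalised counts in NC, 3171, 3848 and 2949 in Hdac1/2 cKD and 1646, 1324 and 1453 in Sin3a KD and rose in Hdac1/2 cKD (log2 0.91, SE 0.13, adjusted p = 0.000526). The rise was called against Sin3a KD too (log2 1.17, SE 0.13, adjusted p = 7.24e-05).

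Slc22a13b-ps, an organic anion transporter gene annotated as a polymorphic pseudogene in GENCODE, was at 900.4, 866 and 776 normalised counts in NC, 499.8, 504 and 513 in Hdac1/2 cKD and 959, 868 and 863 in Sin3a KD and fell in Hdac1/2 cKD (log2 -0.74, SE 0.13, adjusted p = 0.00166). It shares 57.2% of its 31-base words with Slc22a13, so reads may have been divided between them. Slc16a6, a monocarboxylate carrier family member that moves ketone bodies, went from 3249 ± 281 in NC to 2449 ± 146 in Hdac1/2 cKD (log2 -0.41, adjusted p = 0.0186), with Sin3a KD at 3229 ± 271. This gene shares 20.9% of its 31-base words with Amz2. The Slc16a6 call was lost without any 1 of Hdac1/2 cKD replicates 2 and 3 and NC replicate 1 (adjusted p up to 0.0804), with neither trend nor robust moderation (0.0823) and with equal library totals (0.06). Slc16a9 was at 1.57, 0 and 0 normalised counts in NC, 19.4, 23.3 and 26.1 in Hdac1/2 cKD and 10.1, 3.75 and 0 in Sin3a KD (log2 4.12, adjusted p = 0.0242 in Hdac1/2 cKD), with values of 10 or more in every Hdac1/2 cKD library and in 1 other, so it too entered mainly through the group where it is high. The Slc16a9 call was lost without any 1 of Hdac1/2 cKD replicates 1, 2 and 3 (adjusted p up to 0.101). Slc17a5, the lysosomal sialic acid exporter sialin, was higher in Hdac1/2 cKD than in Sin3a KD, 525 ± 38.5 against 312 ± 73.6 (log2 0.77, adjusted p = 0.0173). The Slc17a5 call was lost without any 1 of Hdac1/2 cKD replicates 2 and 3 and Sin3a KD replicates 1 and 2 (adjusted p up to 0.0737), with lane as a factor (0.0692) and with neither trend nor robust moderation (0.0522).

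Among the 18 carriers of vitamins, choline and nucleosides, 4 rose and 2 fell in Hdac1/2 cKD and 4 rose and 1 fell in Sin3a KD. Against Sin3a KD, 2 were higher and 4 lower in Hdac1/2 cKD. With equal totals the counts were 5 and 1, 4 and 1, and 2 and 4. The calls against NC are 33.3% and 27.8% of the class, beside 15.6% and 7.96% of all tested genes. Between the knockdowns they are 33.3%, beside 17.3%. The class medians against NC were -0.0008 (Hdac1/2 cKD) and 0.16 (Sin3a KD). The biotin and pantothenate carrier Slc5a6 is not in this class, since it was counted by family number with the other organic solutes. Slc29a3, a nucleoside carrier of lysosomes, was at 1898, 1941 and 1674 normalised counts in NC, 2485, 2804 and 2644 in Hdac1/2 cKD and 2562, 2495 and 2695 in Sin3a KD. NC was lowest, and the knockdowns overlapped (log2 0.53, SE 0.10, adjusted p = 0.00355 in Hdac1/2 cKD, and log2 0.49, SE 0.10, adjusted p = 0.0111 in Sin3a KD). The Sin3a KD call was lost without Sin3a KD replicate 3 (adjusted p = 0.057), with lane as a factor (0.081) and with neither trend nor robust moderation (0.0713). Slc29a1, the nucleoside carrier ENT1 of the plasma membrane, was at 220.4, 178 and 159 normalised counts in NC, 311, 259 and 273 in Hdac1/2 cKD and 467, 343 and 333 in Sin3a KD. It passed in Sin3a KD (log2 1.03, SE 0.21, adjusted p = 0.0106) but not in Hdac1/2 cKD (log2 0.61, adjusted p = 0.0623), and the comparison of both knockdowns missed the threshold (log2 -0.42, adjusted p = 0.183). The Slc29a1 call was lost without Sin3a KD replicate 1 (adjusted p = 0.0617), with lane as a factor (0.0829) and with neither trend nor robust moderation (0.0523). Slc29a4, a carrier of monoamines and adenosine, was at 110.4, 121 and 83.9 normalised counts in NC, 163, 201 and 189.9 in Hdac1/2 cKD and 169, 197 and 237 in Sin3a KD. Both knockdowns lay above NC, with log2 0.82, adjusted p = 0.0334 in Hdac1/2 cKD and log2 0.94, adjusted p = 0.0301 in Sin3a KD. The Hdac1/2 cKD call was lost without any 1 of Hdac1/2 cKD replicates 1, 2 and 3 and NC replicates 1 and 3 (adjusted p up to 0.118), with lane as a factor (0.093), with only the 2 groups compared (0.0641) and without the filter on low values (0.0539). The Sin3a KD call was lost without any 1 of NC replicates 1 and 3 and Sin3a KD replicates 1, 2 and 3 (adjusted p up to 0.131), with lane as a factor (0.112), with neither trend nor robust moderation (0.0587) and with only the 2 groups compared (0.0705).

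The vitamin carriers changed gene by gene. Of the riboflavin carriers, Slc52a2 was at 273, 310.4 and 270.3 normalised counts in NC, 209, 262 and 220.2 in Hdac1/2 cKD and 580.3, 547 and 565 in Sin3a KD. Sin3a KD was far above the other groups, against NC (log2 0.99, SE 0.17, adjusted p = 0.00542) and against Hdac1/2 cKD (log2 -1.29, SE 0.17, adjusted p = 0.000231). The call against NC was lost with lane as a factor (adjusted p = 0.0794). Slc52a3 fell in Hdac1/2 cKD, from 264 ± 49.7 in NC to 136 ± 21.5, with Sin3a KD at 289.6 ± 43.4 (log2 -0.95, SE 0.23, adjusted p = 0.0123). The Slc52a3 call was lost without Hdac1/2 cKD replicate 1 (adjusted p = 0.0536) and with lane as a factor (0.0588). Slc46a1, the proton-coupled folate carrier, went from 1189 ± 197 to 826 ± 17 in Hdac1/2 cKD (log2 -0.51, adjusted p = 0.0188). The Slc46a1 call was lost without any 1 of Hdac1/2 cKD replicates 1, 2 and 3 and NC replicates 1 and 2 (adjusted p up to 0.0646), with neither trend nor robust moderation (0.0652) and with equal library totals (0.0551). It stood higher in Sin3a KD than in Hdac1/2 cKD, at 1342 ± 56.3 (log2 -0.70, adjusted p = 0.00284), a call kept throughout. Of the thiamine carriers, Slc19a3 was lower in Sin3a KD than in NC, 292 ± 67.4 against 544 ± 115 (log2 -0.90, adjusted p = 0.0234). The Slc19a3 call was lost without any 1 of NC replicates 1 and 3 and Sin3a KD replicates 1 and 3 (adjusted p up to 0.107), with lane as a factor (0.202) and with neither trend nor robust moderation (0.0926). Slc19a2 was at 639 ± 79.2 in Hdac1/2 cKD and 1001 ± 67.7 in Sin3a KD (log2 -0.65, adjusted p = 0.0125). The Slc19a2 call was lost without any 1 of Hdac1/2 cKD replicate 2 and Sin3a KD replicate 3 (adjusted p up to 0.063), with lane as a factor (0.0857) and with neither trend nor robust moderation (0.0516). The choline carrier Slc44a1 was at 606, 464 and 307 normalised counts in NC, 835, 858 and 685 in Hdac1/2 cKD and 282, 300.2 and 223 in Sin3a KD. NC lay between the knockdowns with wide spread, Hdac1/2 cKD above it (log2 0.84, SE 0.23, adjusted p = 0.023) and above Sin3a KD (log2 1.56, SE 0.23, adjusted p = 0.000477). The call against NC was lost without any 1 of Hdac1/2 cKD replicates 1 and 2 and NC replicate 3 (adjusted p up to 0.0867) and with neither trend nor robust moderation (0.0829). Its relative Slc44a2 was at 68.2, 279 and 193 normalised counts in NC, 412, 716 and 527 in Hdac1/2 cKD and 259, 235 and 362 in Sin3a KD (log2 1.79, adjusted p = 0.02 in Hdac1/2 cKD). The Slc44a2 call was lost without any 1 of Hdac1/2 cKD replicates 2 and 3 (adjusted p up to 0.0718) and with neither trend nor robust moderation (0.063).

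A list of 27 carriers known from work on preimplantation embryos had 24 members here, since Slc6a20a, Slc7a7 and Slc9a3 did not enter. Of the 24, 2 rose and 5 fell in Hdac1/2 cKD and 1 rose and 0 fell in Sin3a KD, with medians of -0.09 and -0.08. These are 29.2% and 4.17% of the list, against 15.6% and 7.96% of all tested genes. Without Slc7a3, which passed the level rule through Hdac1/2 cKD, 1 of 23 rose and 5 fell there (26.1%). With equal totals the counts of the 24 were 4 and 3, and 2 and 0. Genes linked to amino acid supply were counted beside the carriers. Of 21 tested genes of the ATF4 response, 5 rose and 2 fell in Hdac1/2 cKD and 2 rose and 1 fell in Sin3a KD (medians 0.17 and 0.10). These are 33.3% and 14.3% of the list, beside the same 15.6% and 7.96%, and with equal totals 6 rose and 2 fell, and 3 and 1. Shmt2, a mitochondrial enzyme of serine and folate metabolism, rose from 274 ± 71.9 to 620.5 ± 109.6 in Hdac1/2 cKD (log2 1.20, adjusted p = 0.0034), while Cth, which makes cysteine, fell from 2534 ± 154 to 1535 ± 52.6 (log2 -0.72, adjusted p = 0.000495). Atf4 itself was at 2105 ± 209 in NC and 1993 ± 84 in Hdac1/2 cKD (log2 -0.08, adjusted p = 0.689). Of 30 tested genes of mTORC1 amino acid sensing, 1 rose and 5 fell in Hdac1/2 cKD and 1 rose and 1 fell in Sin3a KD (medians 0.05 and -0.01). At 20% and 6.67% these shares are near those of all tested genes, and with equal totals the counts were 2 and 2, and 1 and 1. Among the genes that fell were Mlst8, a subunit of the kinase complex (log2 -0.68, adjusted p = 0.0051), and its inhibitor Deptor (log2 -0.68, adjusted p = 0.00186). Of 6 tested organic anion carriers of the SLCO family, 0 rose and 2 fell in Hdac1/2 cKD (median -0.65) and 0 rose and 1 fell in Sin3a KD (median 0.07). These counts of a short list, 33.3% and 16.7%, were the same with equal totals. Slco4c1 was at 1805, 1599 and 1719 normalised counts in NC, 862, 789 and 679 in Hdac1/2 cKD and 975, 1007 and 881 in Sin3a KD (log2 -1.14, SE 0.13, adjusted p = 8.47e-05 in Hdac1/2 cKD and log2 -0.84, SE 0.13, adjusted p = 0.00319 in Sin3a KD).

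Most members passed in no comparison. For the 175 not called in Hdac1/2 cKD against NC, the log2 fold change lay between -0.60 and 1.03 from the 10th to the 90th percentile, with a median standard error of 0.33, so changes of that size can go unseen here. For the 208 not called in Sin3a KD the range was -0.62 to 0.81. The 3 Slc-named members that are not carriers (Slc4a1ap, Slc7a6os and Slc9a3r2) were among those without a call. At the threshold of membership, the third-highest values of the genes just inside were 10.1 (Slc24a1), 10.5 (Slc11a1) and 10.5 (Slc5a4b), and those of the genes just outside were 9.79 (Slc7a13), 9.65 (Slc7a4) and 9.46 (Slc5a8).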

How the data were processed

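The data were gene-level values for 3 libraries each of NC, Hdac1/2 cKD and Sin3a KD. Per the submitters' processing notes and the labels, Salmon assigned reads to transcripts, DESeq2 was used for normalisation, and the build was GRCm38. Of the versions, the sources used here name none. In the deposited file each signal value is a gene's count after division by normalisation factors, here called a normalised count. Whole reads were not recovered from them, since 60.0% to 72.4% of low values per library lay within 0.1 of a whole multiple of the smallest step, so no count test was run. Per the labels, RNA for RFP and GFP went in ahead of extraction, but 0 gene names matched either. A row without a name (0.00543% to 0.00896% of each total) was left out.

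Tests covered the 13343 genes at 10 or more in 3 or more libraries. The scale was log2(value + 1), on which changes of low genes come out too small. Values were fitted with 1 mean per group over all 9 libraries in limma 3.58.1 (R 4.3.3, trend and robust, 6 residual degrees of freedom). Benjamini-Hochberg adjustment ran over all tested genes, and an adjusted p below 0.05 was called. The fit was also run on simulated data, whose outcome is not given here and is not used as support for the calls. Values of 1 called member are not reported here. Lanes were 5, 2 and 3 for NC, 2, 2 and 3 for Hdac1/2 cKD and 4, 3 and 3 for Sin3a KD, so lane and group are partly mixed. In all, 19 alternatives were run. The counts without Slc7a3 and Slc16a9 were added after seeing the data. Coordinates, transcript lengths and shared 31-base words came from GENCODE vM21 (all 227 members matched), and promoters from RefSeq on GRCm38.p6. The members, classes and lists were chosen with earlier results of these data known. Genes were named by a rule: per comparison the 10 highest and 10 lowest fold changes among called members whose mean was 50 or more and whose groups stood apart, the 2 called members per class with the lowest adjusted p, the 2 of each class with the highest level in NC, those at the threshold, the transporters known in embryos or oocytes whatever their values, and called genes of the other lists with the lowest adjusted p. Slc16a9, Slc17a5, Slc19a2, Slc25a12, Slc25a38, Slc25a4, Slc25a51, Slc30a1, Slc35a2, Slc43a3, Slc4a8 and Slc8b1 were chosen after their values were seen.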

Additional observations from a re-analysis of the deposited data

How the results depend on the processing

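Counts of called members are given as higher, lower and in all. In Hdac1/2 cKD against NC (20, 32 and 52) they were 12, 21 and 33 with lane as a factor, 11, 17 and 28 when NC replicate 1 and Sin3a KD replicate 1 were both left out, and 33 in all (19 lower) with neither variance trend nor robust moderation. With equal library totals 21 were lower. In Sin3a KD against NC (9, 10 and 19) the counts were 0, 1 and 1 with lane as a factor, 0, 1 and 1 without those 2 libraries, 1, 1 and 2 with neither trend nor robust moderation, and 15 higher and 6 lower with equal totals. In Hdac1/2 cKD against Sin3a KD (17, 31 and 48) they were 5, 16 and 21 with lane as a factor, 6 higher and 27 in all without those 2 libraries, and 19 lower and 31 in all with neither trend nor robust moderation. Each of those 2 libraries had a lane to itself, so fitting lane leaves the comparisons to fewer libraries. Leaving out 1 library at a time gave 9 to 20 higher, 18 to 33 lower and 29 to 51 in all for Hdac1/2 cKD against NC, 2 to 13, 3 to 14 and 5 to 27 for Sin3a KD against NC, and 6 to 19, 21 to 34 and 28 to 53 for both knockdowns. Libraries whose removal moved a count by over 1.5 times were, for Hdac1/2 cKD against NC, all 3 of Hdac1/2 cKD and NC replicate 1. For Sin3a KD against NC they were Sin3a KD replicates 1 and 3, NC replicate 1 and, for lower calls, NC replicate 3. Between the knockdowns each of the 6 did so for higher calls, and replicate 1 of each knockdown for the total. The other alternatives kept each total within 1.5 times of the reported one. With the replicate number as a block, 51, 22 and 50 members were called. Whether the replicate numbers pair the libraries was not settled. The correlation of deviations was -0.02 to 0.06 over 9 same-numbered pairs and -0.04 to 0.03 over the other pairs. All were weak, but 7 of 9 libraries correlated best with their own number. Of 4422 values of named genes under the alternatives, 4018 kept a call in its direction or stayed without a call, whatever their sign. Another 359 kept direction and lost the call, and 45 kept direction and gained one. Of the values called in either fit, 0 reversed. Changes of sign among values called in neither fit were not counted. Estimated depth was 8.44 M to 16.9 M reads. Of 71 members with a mean below 50, 7 were called in at least 1 comparison, and of 156 at 50 or more, 67 were. Whether depth sets this difference was not tested. Except where a fit uses fewer libraries or genes, the cause of these shifts was not tested.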
